A study of Caenorhabditis elegans with 2 samples.

Results

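Peaks of FAX-1 ChIP-seq were described at 3 small RNA genes of C. elegans: rpr-1, which encodes the RNA of ribonuclease P (RNase P), mrpr-1, which encodes the RNA of the related RNase MRP, and srpr-2.2, which is named in the class of signal recognition particle (SRP) RNA genes. They are 3 of the 7764 nuclear genes of biotype ncRNA, and of 46890 nuclear genes in all, in the WBcel235 annotation. The series holds 1 group with 2 biological replicates: whole hermaphrodites of strain OP164 at the late embryonic stage, taken 4 h after synchronization by egg bleaching. The line stably carries FAX-1, a nuclear hormone receptor of neurons, with a C-terminal tag of GFP and FLAG, and chromatin was precipitated with an anti-GFP antibody. Both samples carry the tagged protein, the cells that make it are not named in the labels, and no untagged strain was analysed here. Binding by FAX-1 at a gene therefore cannot be told apart from signal that precipitation of this kind gives without it. The genes were chosen because their peaks were known, so their signals are given as a description, with no test.

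RNase P removes the 5′ leader from precursors of transfer RNA, and its catalytic RNA works together with protein subunits. RNase MRP has a related RNA, shares most of its protein subunits with RNase P in yeast and human cells, and acts in the processing of ribosomal RNA. The SRP RNA is the scaffold of a particle that brings ribosomes making secreted proteins to the endoplasmic reticulum. In human cells, genes of these 3 kinds are transcribed by RNA polymerase III. There, RNase P and MRP genes are started from elements upstream of the gene, among them an AT-rich TATA element, and the polymerase stops at a run of T bases.

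The bases around the starts of mrpr-1, srpr-2.2 and 5 genes used for comparison are shown. One reason is that the strong summits of the first 2 lie just inside the transcript. Another is that the flanks, more than the transcripts, set the SRP RNA genes apart, except srpr-1.1 from srpr-1.2. Each stretch is read from RefSeq's WBcel235 sequence on the gene's own strand, with 60 upstream bases in lower case and the first 40 bases of the annotated transcript in capitals. The windows are chrII:7200173-7200272 (plus strand) for mrpr-1, chrIII:5031669-5031768 (minus) for srpr-2.2, chrIII:4379167-4379266 (minus) for srpr-1.1, chrIII:4369408-4369507 (plus) for srpr-1.2, chrIII:5211160-5211259 (plus) for srpr-2.1, chrV:9293593-9293692 (minus) for srpr-3 and chrIV:7499448-7499547 (plus) for yrn-1, a gene for Y RNA.
mrpr-1: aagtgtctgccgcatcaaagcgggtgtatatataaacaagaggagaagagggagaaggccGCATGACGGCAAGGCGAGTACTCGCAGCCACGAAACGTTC
srpr-2.2: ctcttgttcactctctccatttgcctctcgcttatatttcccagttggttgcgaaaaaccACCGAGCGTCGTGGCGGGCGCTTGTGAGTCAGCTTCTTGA
srpr-1.1: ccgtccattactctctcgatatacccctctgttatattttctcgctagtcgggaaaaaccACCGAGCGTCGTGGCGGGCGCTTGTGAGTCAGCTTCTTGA
srpr-1.2: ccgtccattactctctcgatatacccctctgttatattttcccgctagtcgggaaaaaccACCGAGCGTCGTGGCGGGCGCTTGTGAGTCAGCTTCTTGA
srpr-2.1: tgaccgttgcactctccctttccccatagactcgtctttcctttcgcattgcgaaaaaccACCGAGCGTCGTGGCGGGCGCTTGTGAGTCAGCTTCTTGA
srpr-3: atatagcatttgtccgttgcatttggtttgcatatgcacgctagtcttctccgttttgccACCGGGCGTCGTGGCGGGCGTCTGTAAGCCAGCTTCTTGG
yrn-1: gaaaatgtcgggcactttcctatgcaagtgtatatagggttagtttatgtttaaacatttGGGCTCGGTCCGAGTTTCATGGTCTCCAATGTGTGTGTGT

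All 3 genes had a peak in the final list, the set of 830 peaks that the authors kept after comparing replicates by the irreproducible discovery rate (IDR). Each had its summit in the gene. A summit of that list lay in or within 500 bp of 2.97% of all nuclear genes and of 3.5% of ncRNA genes. For the 13841 loosely called candidates of the pooled replicates, the shares were 25.7% and 29.5%. Since the genes were picked for their peaks, nothing is read from 3 of 3 against these shares. Genes close to each other can share a summit in such counts.

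The signal is the authors' score for each peak, on a scale not given in the sources used here, and its floor and median differ between lists. The median candidate had a signal of 40.4 in the pooled list, 26.9 in replicate 1 and 16.5 in replicate 2. Values are therefore set side by side as ranks, as percentages of the list (a low percentage is a strong peak) and as multiples of the list's median.

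The RNase P RNA gene rpr-1 (WBGene00045238, chromosome I, 13463955 to 13464207, plus strand, 253 bp) had the strongest peak of the 3 in the pooled list and in replicate 2. Its signal was 235.3 in the pooled list, where it ranked 150, in the top 1.08%. In replicate 1 the signal was 129.5 and the rank 208 of 15446 (1.35%), and in replicate 2 it was 105.4 and the rank 102 of 18555 (0.550%). Relative to the median candidate these signals were 5.83-fold in the pooled list, 4.81-fold in replicate 1 and 6.38-fold in replicate 2. Both replicates thus held rpr-1 among their strongest candidates, with replicate 2 ranking it higher. The summit lay 16 bp into the transcript in the pooled list, 14 bp in replicate 1 and 22 bp in replicate 2. The pooled peak was 246 bp wide and that of replicate 1 was 125 bp wide, both narrower than the 436 bp of the median candidate.

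rpr-1 sits within an intron of ints-8, on the opposite strand. ints-8 encodes a subunit of the Integrator complex, which processes small nuclear RNAs. The ints-8 start was the nearest protein-coding start to the summit, 6400 bp away. A weaker candidate lay near the 3′ end of rpr-1, 215 bp from its start, with a pooled signal of 51.1 and a rank of 3544. It recurred at that base in replicate 1 (signal 40.8, rank 2261) but had no counterpart within the window in replicate 2. Outside the window, the next pooled summit was 6207 bp away, with a signal of 98.6 and rank 824, close to the weakest final signal of 98.3.

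The RNase MRP RNA gene mrpr-1 (WBGene00045095, chromosome II, 7200233 to 7200418, plus strand, 186 bp) had a pooled signal of 193.8, which ranked 212 (1.53%). Replicate 1 gave 122.4 at rank 227 (1.47%) and replicate 2 gave 68.7 at rank 225 (1.21%). The multiples of the median were 4.80 in the pooled list, 4.54 in replicate 1 and 4.16 in replicate 2. Of the 3 genes mrpr-1 had the weakest peak in each list, and the replicates placed it at nearly the same rank. The summit lay 34 bp into the transcript in the pooled list and in replicate 2, and 66 bp into it in replicate 1.

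Unlike the other 2 genes, mrpr-1 lies between protein-coding genes and overlaps none of them. The gene pcrg-1 begins 130 bp beyond its 3′ end on the same strand, and E04F6.6 begins 667 bp before its 5′ end and is transcribed in the opposite direction. The summit was 282 bp from the pcrg-1 start, so it also falls within 500 bp of a coding gene. A second pooled candidate, 238 bp from the mrpr-1 start and in the gap before pcrg-1, had a signal of 39.9 and ranked 7190, near the median of the list. No separate candidate lay there in either replicate. The next pooled summit outside the window was 15362 bp away.

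The SRP RNA gene srpr-2.2 (WBGene00195017, chromosome III, 5031410 to 5031708, minus strand, 299 bp) had a pooled signal of 226.2 at rank 158 (1.14%). In replicate 1 its strongest peak had a signal of 143.3 at rank 166 (1.07%), and in replicate 2 the signal was 89.1 at rank 142 (0.765%). These are 5.60, 5.32 and 5.39 times the medians of the respective lists. In replicate 1 srpr-2.2 ranked above rpr-1, whereas in replicate 2 and in the pooled list it ranked below, so the replicates differ in the order of these 2 genes. Both ranked above mrpr-1 in each list.

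The summit at srpr-2.2 lay 14 bp into the transcript in the pooled list and 12 bp in replicate 2. Replicate 1 had 2 overlapping peaks in its place. The stronger had its summit 112 bp into the gene, and the other, with a signal of 69.0 at rank 710, had its summit at position -88, upstream of the start. Both were among the 830 strongest of that replicate. srpr-2.2 lies in an intron of klp-6, a kinesin gene of ciliated neurons, on the opposite strand, and the klp-6 start was 765 bp from the summit. Its first 39 bp also overlap R144.16, another ncRNA gene on the same strand, whose annotated start is 109 bp upstream. The peak therefore cannot be given to srpr-2.2 rather than R144.16 by position alone.

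**Figure D1:**
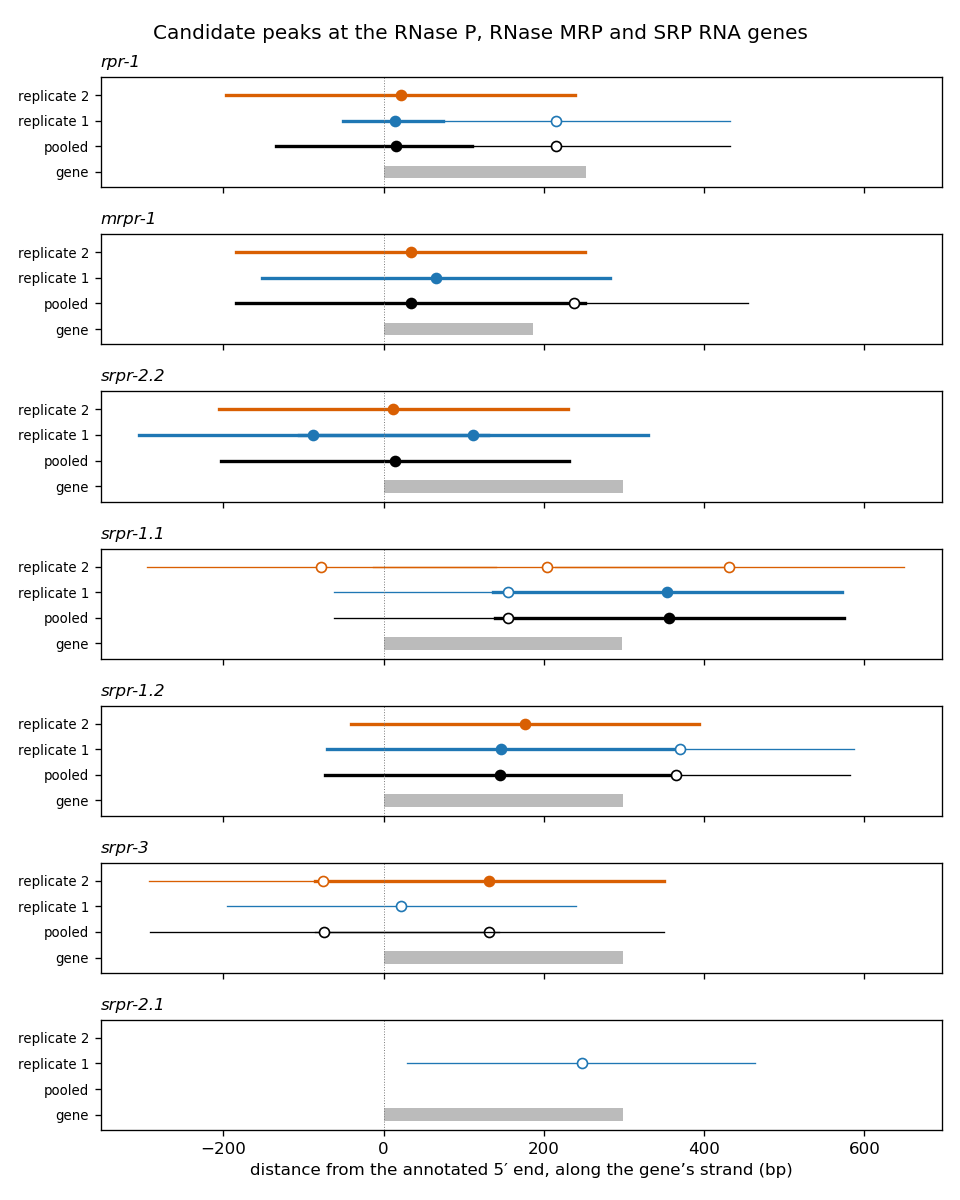
Candidate peaks (lines) with their summits (circles) at rpr-1, mrpr-1, srpr-2.2 and the 4 other srpr genes, plotted by distance in bp from the annotated 5′ end along the gene's strand, with the gene as a grey bar. Filled circles and thick lines are among the 830 strongest of their list, open circles and thin lines are not; in the pooled list the filled summits of the first 3 genes lie 14 to 34 bp after the start.

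The pooled summits of all 3 genes lay at positions 14 to 34, with position 0 as the first base of the transcript. For comparison over the other RNA classes, the strongest final summit of each gene with one in the window was placed in the same way, and the span of 0 to 34 bp was set after seeing the 3 genes. It held 46 of 168 such tRNA genes, 33 of 272 ncRNA genes, 0 of 57 snoRNA genes and 0 of 9 snRNA genes. The median position was 15.0 bp after the start for tRNA genes, 72.5 bp after it for ncRNA genes and -51.0 bp, upstream, for snoRNA genes. The median signal was 150.4, 138.1 and 235.4, respectively. The signal of rpr-1 was close to that of the median snoRNA gene with a final peak, and all 3 genes lay above the medians of tRNA and ncRNA genes. Genes in these classes can share a summit, and peaks of the usual width have their summit at the centre, which limits the resolution.

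**Figure D2:**
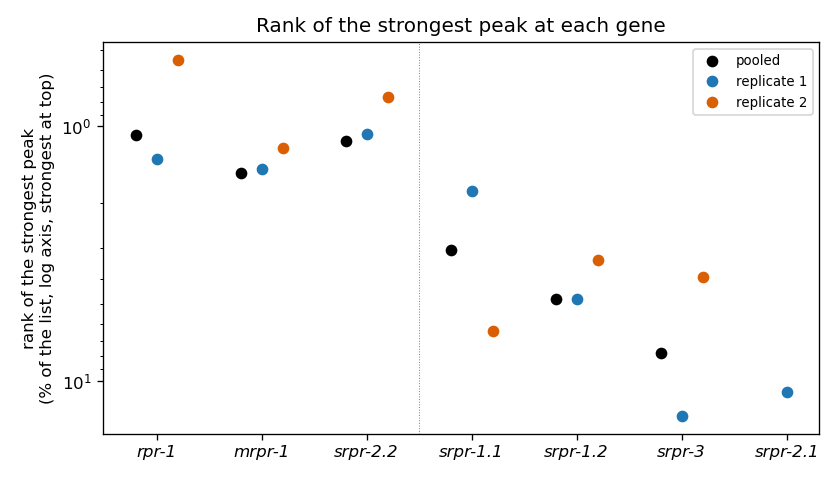
Rank of the strongest peak at each gene as a percentage of its list, on a log axis with the strongest at the top, for the pooled list (black), replicate 1 (blue) and replicate 2 (orange). The points of rpr-1, mrpr-1 and srpr-2.2 (left of the dotted line) lie between 0.550% and 1.53%, and those of the other srpr genes are all at larger percentages.

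The genome holds 5 genes named srpr, and they differed in their peaks although their transcripts are alike. srpr-1.1 had a final peak with a pooled signal of 138.3 (rank 424), but its summit was 356 bp from the gene start, beyond the 3′ end and inside pals-26, a coding gene that ends 1 bp from srpr-1.1. In replicate 1 this peak had a signal of 111.0 and ranked 277, whereas in replicate 2 the strongest candidate had a signal of 32.6 and ranked 1186, outside the 830 strongest. srpr-1.2, in an intron of ckb-2, a choline kinase gene, had a final peak inside the gene, 145 bp from its start, with a pooled signal of 110.0 (rank 660). It ranked 737 in replicate 1 and 620 in replicate 2.

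srpr-3 was in the pooled list but not in the final one, with a signal of 84.9 at rank 1079, 132 bp into the gene. It ranked 2122 in replicate 1 and 723 in replicate 2, so it was among the 830 strongest of replicate 2. An ncRNA gene, F44A2.13, is annotated over nearly the same bases, so values of srpr-3 hold for both. srpr-2.1 had no candidate in the pooled list or in replicate 2, and 1 in replicate 1 with a signal of 45.6 at rank 1719, 247 bp into the gene. In rank order, srpr-2.2 was thus ahead of the 4 others in each list and srpr-2.1 was missing from the pooled list and from replicate 2, while srpr-3 was last in replicate 1.

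**Figure D3:**
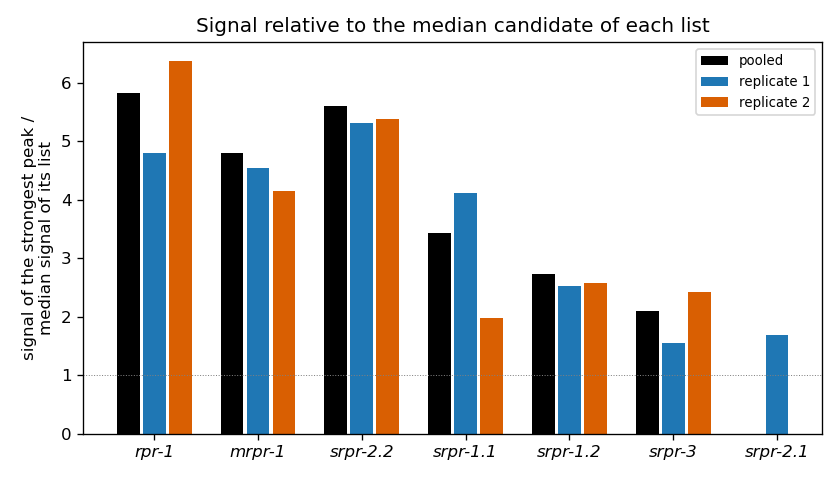
Signal of the strongest peak at each gene divided by the median signal of its list, for the pooled list (black), replicate 1 (blue) and replicate 2 (orange); the dotted line marks the median candidate and a missing bar means that the list had no candidate within 500 bp. rpr-1, mrpr-1 and srpr-2.2 lie between 4.16 and 6.38, and srpr-1.1 is at 4.12 in replicate 1 and at 1.97 in replicate 2.

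Copies this alike can share short reads, and how the authors placed such reads is not stated in the labels. The srpr-2.2 transcript differed from that of srpr-2.1 by 3 edits (99.0% identity), from srpr-1.1 and srpr-1.2 by 18 edits (94.0%) and from srpr-3 by 55 (81.6%). Within 100 bases of the srpr-2.2 summit, 60.2% of 36-base words and 65.8% of 50-base words occur once in the genome, and in the gene body 33.0% and 40.4% do. Around the summits of rpr-1 and mrpr-1, all words of both lengths are unique, so reads there are not shared with another copy. For srpr-1.2 the share around the summit is 6.63% at 36 bases, and for srpr-1.1, whose summit lies outside the repeated transcript, it is 97.6%. For srpr-3 all words of both lengths are unique, both around its pooled summit and in the gene body. The share of the signal at the other srpr genes that comes from reads of other copies was not tested.

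Except between srpr-1.1 and srpr-1.2, the upstream flanks of the srpr genes were less alike than the transcripts. Over the 60 bases shown above, srpr-2.2 had 63.3% identity with srpr-2.1, 68.3% with srpr-1.1, 70.0% with srpr-1.2 and 48.3% with srpr-3. The flanks of srpr-1.1 and srpr-1.2 were 98.3% identical to each other, as were their transcripts. srpr-2.1 and srpr-2.2 therefore carry almost the same RNA behind different upstream sequence. In the pooled list srpr-2.2 ranked highest of the 5 and srpr-2.1 had no candidate. srpr-1.1 and srpr-1.2, with nearly the same flank, had final summits at different positions, 356 and 145 bp from their starts. At srpr-2.1, 57.2% of 36-base words around its replicate 1 summit and 31.4% in the gene body occur once in the genome. Whether flanks or read placement relate to these peaks was not tested.

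Short words were then searched, on both strands, from 250 bases before to 50 bases after the start, with position 0 as the first base of the transcript. The TATA word TATAAA occurred at position -30 of mrpr-1. It was absent from the window of rpr-1, and srpr-2.2 had it only farther upstream on the other strand, at -238 and -196. It was in the windows of 37.4% of all genes and 25.6% of ncRNA genes. GTCGG, a word searched as a candidate for the proximal sequence element of small nuclear RNA genes, was found at position -54 of rpr-1 and at -245 of srpr-2.2 on the other strand. mrpr-1 did not have it, and its share was 16.8% of all genes and 21.96% of ncRNA genes.

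AT-rich words near position -30 were noticed in the sequences and were searched for afterwards. TATATA was at -30 in rpr-1 and at -34 and -32, overlapping, in mrpr-1. TTATAT was at -29 in srpr-2.2, srpr-1.1 and srpr-1.2, and its reverse complement was at -29 in rpr-1 and -31 in mrpr-1, overlapping TATATA in both. Neither word began between -35 and -25 in srpr-2.1 or srpr-3. One of the words, on either strand, began in that span in 3.60% of all nuclear genes and 1.57% of ncRNA genes.

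Of the 7 genes for RNase P, RNase MRP and SRP RNA, the 5 with an AT-rich word in that span were thus the 5 with a final peak in the window, that of srpr-1.1 at its 3′ side. The words were chosen on these genes, so that match is not support for a link. yrn-1 does not follow it: it has TATATA at -30 and GTCGG at -54, the same positions as rpr-1, and had no candidate within 500 bp in any list. Its nearest pooled summit was 5713 bp away. Among all ncRNA genes, 12 of the 122 with a word in the span had a final summit (9.84%), against 260 of the 7642 without (3.40%). The 12 include the same 5 genes, on which the words were chosen, so the contrast is in part built in. Over all nuclear genes the shares had the opposite order, 40 of 1687 with a word (2.37%) and 1353 of 45203 without (2.99%), as they had over protein-coding genes (2.69% and 4.26%). Among tRNA genes the counts were 8 of 18 and 160 of 594, among snRNA genes 4 of 19 and 5 of 110, and among snoRNA genes 0 of 9 and 57 of 337.

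Other words did not recur across the 3 genes. GGTTCGA, the core of the B box inside tRNA genes, was absent from the start windows and from the 75 bases on each side of the summit in all 3, while 11.9% of the final summit windows on the nuclear chromosomes had it. AAGTCA, the half-site of the receptor class of FAX-1, was also absent from both windows in all 3, and was in 3.20% of final summit windows. GAGAGA was within 75 bases of the summits of rpr-1 and srpr-2.2 but not of mrpr-1, and was in 24.7% of final summit windows. The absence of a word says only that these letters are not in the window.

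At the 3′ ends, a run of T spanned the annotated end in all 3 genes. The longest run over the last 10 bases and the next 30 was 5 in rpr-1, 4 in mrpr-1 and 5 in srpr-2.2, each beginning at the second to last base of the gene. Runs of 5 also spanned the end in srpr-1.1 and srpr-1.2. The longest run was 7 in srpr-2.1 and 5 in srpr-3, beginning 7 and 20 bases after the end. A run of 4 or more T that spans the annotated end, counted after the 3 genes were seen to have one, was present in 7.67% of all nuclear genes and 5.13% of ncRNA genes. TTTT lay fully within the 30 bases after the end of 46.2% and 31.1% of them, and rpr-1 is not among these, since its run begins inside the gene.

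The shares of 2.97% (final) and 25.7% (pooled) of all nuclear genes are the background for the lists of related genes, and no difference from them was tested. They cover genes of every biotype and length, and a longer gene has more room for a summit. The lists of protein genes that follow are not matched to them in either. Among protein-coding genes the final share was 4.26% without an AT-rich word in the span above and 2.69% with one, and no pooled share was counted. Of 4 genes matched for the protein subunits of RNase P and MRP (popl-1, popl-4, popl-5 and popl-7), 0 had a final summit within 500 bp. A pooled candidate was found for 2, popl-5 (signal 38.3) and popl-7 (36.3), both below the median of the pooled list. Both summits lay beyond the 3′ end of the gene, 2086 and 1160 bp from the start. Of 19 genes for RNA polymerase III, its initiation factors and its repressor, 1 had a final summit: rpac-19, which encodes a subunit shared with RNA polymerase I (signal 120.9, rank 540, position -127). It was not among the 830 strongest of replicate 2. A pooled candidate lay in or within 500 bp of 10 of the 19, among them rpc-2 (signal 78.1), the second largest subunit. The rpc-2 summit was beyond the 3′ end of the gene, 7709 bp from the start.

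A further list held 18 other noncoding RNA genes (yrn-1, rncs-1 and the rrn-4 genes for 5S ribosomal RNA). It was drawn up for RNA polymerase III, but the data used here do not show which polymerase makes rncs-1 RNA. Of the 18, 0 had a final summit and 0 a pooled candidate, beside the same 2.97% and 25.7% of all nuclear genes. The rrn-4 genes are repeated copies, for which reads may not be placed. rncs-1 had 1 candidate in replicate 2, with a signal of 13.5 at rank 15903.

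Taking the top 830 candidates of 1 replicate at a time instead, all 3 genes had a summit in the window. That follows from their ranks in each replicate, given above, and nothing is read from it. The share of ncRNA genes with such a summit was 3.67% in replicate 1 and 3.77% in replicate 2. The peaks whose ranks in both replicates were nearest to those of each gene, among 809 other final peaks on the nuclear chromosomes with a candidate in both replicates, were found by distance on the log10 rank scale. For rpr-1 they lay at the tRNA gene C02F12.t1 (ranks 226 and 108) and within W09B6.4 (188 and 105). For mrpr-1 they were a pair of overlapping peaks at the ncRNA genes F52D10.7 and F52D10.9, which overlap the same replicate peaks (234 and 230). Each final peak takes the best rank among the replicate peaks it overlaps, so the pair shares these ranks. Their pooled signals differ: 184.1 (rank 241) at F52D10.7 and 128.4 (rank 484) at F52D10.9. For srpr-2.2 they lay at the tRNA gene F33G12.t1 (170 and 140) and 242 bp from T07A9.12 (179 and 141). The likeness rests on 2 replicates and is of rank only.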

How the data were processed

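Per the labels, the lists used here, on the ce11 build, come from the authors: loose calls for each of 2 replicates and for both pooled, and a subset passed by IDR. The deposited signal value and −log10 q value of each peak were read by their place in the format. The latter was not used for ranking. No label names the aligner or peak caller, and depth is unknown. The ce10 lists were not used here. All 830 final rows were the strongest 830 pooled rows.

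Peaks were matched to genes of Ensembl release 115 by a summit in or within 500 bp, and ranked by signal in Python 3.11.15 with pandas 2.3.3. Sequence came from WBcel235, whose 7 chromosome names and lengths hold all peaks. The matching was tested on simulated data: of 200 summits planted at isolated genes, 200 were recovered, with 0 other genes called. Members, lists, words and comparisons were chosen with earlier results of these data known, and no test was run. The named genes are the 3 members, the genes that overlap or flank them, srpr genes with a candidate, list genes with a final summit, and the 2 most alike peaks of each member. Other genes, among them yrn-1, srpr-2.1 and list genes with weaker candidates, were named after their values were seen. Of the listed symbols and prefixes, 4 matched no gene. Genes for SRP proteins are not reported here. Alternatives were other windows, ranks among merged regions, overlap of the peak, the stronger 50% of the final list, and each replicate alone.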

Additional observations from a re-analysis of the deposited data

How the results depend on the processing

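All 3 genes kept a summit under the other windows, peak overlap, the strongest 415 peaks, and each replicate alone (3 to 3 of 3). These settings could not have dropped them, since the summits lie inside the genes and the ranks given above are within each cut. The 272 ncRNA genes with a final summit fell to 135 with the summit inside the gene and to 134 in the stronger 50%, and were 285 to 293 in single replicates. SRP RNA genes went from 3 to 1 in the stronger 50% and RNA polymerase III machinery from 1 to 0 inside the gene, within 100 bp and in the stronger 50%. Leaving out a replicate gave 0 to 1 for that machinery, 3 to 3 for SRP RNA genes and 0 for the other lists. The 3 SRP RNA genes were not the same: in replicate 2, srpr-3 took the place of srpr-1.1. With 1 replicate left out, the rank was 0.5497 to 1.3466% for rpr-1 (pooled 1.0837), 1.2126 to 1.4696% for mrpr-1 (pooled 1.5317) and 0.7653 to 1.0747% for srpr-2.2 (pooled 1.1415). Among merged regions it was 1.1492, 1.6137 and 1.2122%. In single replicates the summit ranged from 14 to 22, 34 to 66 and 12 to 112 bp after the start. No paired analysis was possible because there is 1 group and no test. With 2 replicates, no control list and no depth, the only error that can be seen is the difference between replicates. Error that both replicates share does not show in it.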
